A study of Mus musculus with 4 samples.

Results

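Cultured mouse hepatic stellate cells of the IMS/N line that had received both PA and a medium taken from cultures of stem cells of adipose tissue (ADSC medium) were compared with cells that had received neither. The comparison rests on 2 of the 4 one-colour Agilent arrays of the study, 1 with the combined treatment and 1 control. The other arrays, 1 with PA alone and 1 with ADSC medium alone, supply the levels printed beside it. Of 26793 gene names on the array, 18464 were well above background on at least 1 of the 2 arrays and were compared. IMS/N cells were derived from liver stellate cells of normal 129/Sv mice and made immortal by SV40 infection, so all 4 cultures, control included, carry that virus's transforming genes and stand for 1 line. The stem cells came from inguinal subcutaneous fat of male C57BL/6J mice aged 8 to 10 weeks, and only their medium, not the cells, was put on the IMS/N cells. PA is not spelled out in the labels, and palmitic acid, a saturated fatty acid, is the usual reading of it in work on fatty liver. No source used here gives the dose, time or vehicle of PA, or says whether cultures without ADSC medium received a base medium instead. The combined array therefore describes an end state against cells without either addition.

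Stellate cells of the healthy liver store vitamin A, and after injury they turn into contractile, matrix-producing myofibroblasts that lay down the scar of fibrosis. They also answer danger signals: nucleic acid sensors and Toll-like receptors switch on interferon-beta and, through the NF-kB pathway, cytokines and chemokines. Secreted interferon acts back on the same cells through factors that bind interferon-stimulated response elements (ISREs) in the promoters of antiviral genes.

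**Figure D1:**
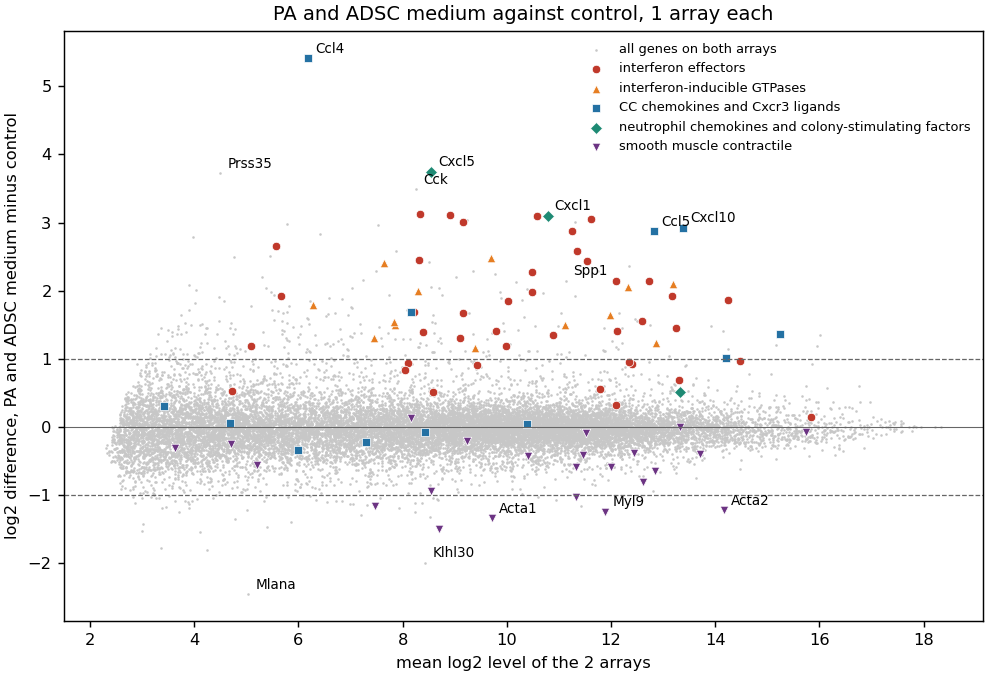
Log2 difference between the array with PA and ADSC medium and the control array (vertical axis) against the mean log2 level of the 2 arrays (horizontal axis) for the 17552 genes well above background on both. Each point is 1 gene, coloured points are members of 5 gene lists, and dashed lines mark 2-fold. Many interferon effectors and several chemokines lie above the upper line, Ccl4 is highest at 5.41, and contractile genes make up part of the points below the lower line.

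Most genes lay close together on the 2 arrays, and the larger differences were mostly on the side of higher levels after the combined treatment. A level is the log2 of the processed intensity of a probe after quantile normalization, and every difference is the level with PA and ADSC medium minus the control level. The median difference was -0.02, and 16939 genes (91.7%) lay within 1.5-fold. At least 2-fold higher were 330 genes (1.79% of those compared), and at least 2-fold lower were 77 (0.417%). At 1.5-fold the counts were 855 higher (4.63%) and 670 lower (3.63%), and at 3-fold they were 117 and 6. Of the genes past 2-fold, 36 higher and 18 lower were well above background on only 1 of the 2 arrays, and their differences are lower bounds, written "at least", for the processed signal alone. By any amount, 45.9% of genes were higher and 52.7% lower. A second background correction, normexp on the raw signal with an offset of 50, gives smaller differences for dim genes, bounds included, and its log2 value follows a gene where it moved the difference by over 1.5-fold or under the fold at which the gene was counted. With 1 array a side there is no spread between cultures, no test was run, and each value compares 2 libraries of RNA rather than 2 conditions. Probes printed on 10 spots gave the spread of the array itself. The difference between single spots had an SD of 0.40 below a level of 3, 0.28 between 3 and 4, 0.13 between 5 and 7, and 0.06 above 11. All 4 arrays lay on 1 slide read in 1 scan, between 67.6% and 70% of their probes were well above background, and their 75th percentiles of intensity were 494.6, 622, 496.9 and 542.1 before normalization, for control, PA, ADSC medium and both.

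The label of the cells was checked against markers first, and the 4 levels of a gene always stand in the order control, PA alone, ADSC medium alone, both treatments. Of 20 stellate cell markers, 14 were well above background on both arrays, among them Vim (vimentin), at 16.05, 16.08, 16.05 and 16.06, and Pdgfrb (the PDGF receptor beta), at 12.39, 11.46, 12.74 and 12.79. Gfap, Lrat, Reln, Hand2, Rgs5 and Hgf, which mark resting or freshly isolated stellate cells or pericytes, were not well above background on either array, and Des (desmin) was near the floor at 3.63, 4.51, 3.47 and 3.38. Of the markers of other cells, Adipoq, Lep and Plin1 (adipocyte), Alb and Apoa1 (hepatocyte), Adgre1, Clec4f and Ptprc (macrophage and leukocyte), Pecam1 and Cdh5 (endothelium), and Epcam and Cdh1 (epithelium) were not well above background on either array. Counted over whole lists, 10 of 16 adipose stromal or adipocyte markers were well above background on both the control and the combined array, with summed intensities of 21200 and 26200. For macrophages it was 7 of 12 on each array, with sums of 358 and 299, for T cells or neutrophils 5 of 11 with 367 and 436, and for hepatocytes 3 of 11 in the control and 4 of 11 on the combined array with 114 and 107. The adipose list held bright members, among them Cd34 at 12.57, 12.73, 12.94 and 13.23 and Fabp4 at 11.46, 10.95, 12.07 and 11.99. Further lists also held bright members. Well above background on each array were 5 of 10 endothelial markers (sums 3090 and 3790) and 7 of 10 biliary or epithelial markers (2450 and 5880). For mesothelial or portal fibroblast markers it was 7 of 10 (107000 and 116000). Eng (endoglin), Vwf and Kdr, known from endothelium, were at 11.10, 11.48, 11.10 and 11.26, at 8.99, 9.26, 9.43 and 9.84 and at 8.30, 8.77, 7.95 and 8.47. Msln (mesothelin), known from mesothelium, was at 15.03, 14.84, 15.26 and 14.94, and the keratins Krt7 and Krt19 were at 9.19, 8.64, 8.31 and 7.87 and at 8.52, 8.37, 8.6 and 8.14. The biliary list includes Spp1, at 10.05, 10.16, 11.70 and 12.20. The part of these markers in the results was not tested.

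Antiviral genes induced by interferon were a broad group of higher genes. Of 43 interferon effectors compared, 38 were at least 1.5-fold and 30 at least 2-fold higher with the combined treatment, and none was at least 1.5-fold lower. Their median difference was 1.56, against -0.02 over all genes compared. The same genes had a median of 1.95 on the PA array and -0.14 on the ADSC medium array, each against the same control array. A higher level in a bulk sample can come from more cells with the RNA or more RNA per cell, which cannot be told apart here.

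Ifit3b and Ifit3, which encode interferon-induced proteins with tetratricopeptide repeats that bind viral RNA complexes, were at 6.78, 10.03, 7.17 and 9.90 and at 10.09, 13.31, 10.60 and 13.14. They were 8.74-fold and 8.27-fold higher on the combined array than in the control. Zbp1, a sensor of Z-form nucleic acid that can start necroptosis, was at 7.35, 10.58, 7.70 and 10.47, 8.68-fold higher. In all 3 genes the control and ADSC medium arrays were the low ones, and the PA and combined arrays were the high ones. Mx2, a dynamin-like antiviral GTPase, was at 9.04, 12.45, 8.88 and 12.13, 8.55-fold higher with both treatments. Rsad2 (viperin), an enzyme that makes a chain-ending nucleotide, was at 7.66, 11.03, 8.25 and 10.67, 8.04-fold higher. Ifi44, an interferon-induced gene long used as a signature member, was at 9.82, 13.10, 9.50 and 12.70, 7.34-fold higher. For each of these, the combined array lay slightly below the PA array and far above the 2 arrays without PA. Ddx60, a helicase of antiviral signalling, was at 4.24, 7.34, 4.48 and 6.89, and Ifit1, the founding member of the Ifit family, was at 10.05, 12.73, 10.44 and 12.64. Their folds were 6.27-fold and 6.02-fold. For Ddx60 normexp gave 1.17. Mx1, the relative of Mx2 that blocks influenza virus, was not well above background on the control or ADSC medium arrays and reached 4.77 on the combined array, at least 5.07-fold higher (0.60 with normexp), while its other probe differed by 3.28. Members within 1.5-fold included Ifi27 and Ifi35, with differences of 0.14 and 0.56.

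The ISRE core was searched as GAAANNGAA on both strands in promoter windows of 250 bases before to 50 after the start of each gene, taken from RefSeq on build GRCm38.p6. It was present for 18 of 32 interferon effectors in the table and for 9 of 10 interferon-inducible GTPases, against 2638 of all 27025 genes there (9.76%). It was also present for 4 of 12 CC chemokines and Cxcr3 ligands, 3 of 21 NF-kB targets and 1 of 7 neutrophil chemokine and colony-stimulating factor genes. Contractile and housekeeping genes had 1 of 19 and 1 of 12. These counts cover whole lists, whatever the difference of a gene. The windows of Ifit1, Ifit3 and Ddx60 are shown because these genes are among the most different, and Igtp, a GTPase described next, is shown with them. Each stretch lies before the gene's start, and capitals mark matches to the core on either strand, overlapping matches included.
Ifit1, chr19:34640755-34640838, plus strand: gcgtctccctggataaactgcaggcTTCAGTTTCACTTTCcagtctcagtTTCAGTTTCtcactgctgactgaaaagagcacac
Ifit3, chr19:34583349-34583460, plus strand: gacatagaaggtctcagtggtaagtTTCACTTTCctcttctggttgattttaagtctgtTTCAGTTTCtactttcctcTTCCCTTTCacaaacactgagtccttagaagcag
Ddx60, chr8:61928009-61928086, plus strand: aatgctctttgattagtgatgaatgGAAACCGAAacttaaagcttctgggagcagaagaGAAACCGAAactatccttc
Igtp, chr11:58199497-58199555, plus strand: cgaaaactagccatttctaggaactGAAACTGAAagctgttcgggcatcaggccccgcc
The nearest match began 84 bases before the start in Ifit1, 102 in Ifit3, 19 in Ddx60 and 34 in Igtp. The printed Ifit3 stretch is identical to that of its neighbour Ifit3b, and whether their probes tell these close relatives apart was not tested. A match of letters is a description and does not show that a factor was bound.

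The interferon-inducible GTPases, which attack the vacuoles of intracellular microbes, were all higher. Of 14 compared, 14 were at least 2-fold higher with the processed signal, with a median difference of 1.68. With normexp 13 were at least 1.5-fold and 12 at least 2-fold higher, with a median of 1.37. Gbp4, not well above background in the control, was at least 3.275-fold higher (0.25 with normexp). Igtp (Irgm3) was at 12.15, 14.49, 11.82 and 14.25, 4.28-fold higher on the combined array, and Iigp1, which loads onto the vacuole of Toxoplasma, was at 8.46, 11.43, 8.30 and 10.94, 5.57-fold higher. Gbp6 and Gbp3, guanylate-binding proteins of the same defence, were 5.29-fold and 4.15-fold higher, and for Gbp6 normexp gave 1.80. Tgtp1, another member, was 3.98-fold higher by its brightest probe, while its other probe differed by only 0.29. In each of these genes the PA array was the highest of the 4 and the combined array the next. The median of the 14 was 2.06 with PA alone and -0.12 with ADSC medium alone.

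Among nucleic acid sensors, 8 of 14 were at least 1.5-fold and 7 at least 2-fold higher, with a median of 0.90. With normexp those counts were 7 and 6, with a median of 0.47. Dhx58 (LGP2) and Ifih1 (MDA5), RNA helicases that sense double-stranded RNA, were at 8.94, 11.17, 8.96 and 10.83 and at 9.35, 11.22, 9.44 and 11.22. Their folds were 3.71-fold and 3.66-fold. Tlr3, the endosomal receptor for double-stranded RNA, was at 6.14, 8.14, 6.14 and 7.78, 3.12-fold higher. Both arrays with PA were high in these 3 genes, and the combined array was level with the PA array in Ifih1 and below it in the other 2. Tlr7, a receptor for single-stranded RNA, was at 2.02, 2.16, 2.92 and 3.78 and not well above background in the control, which gives at least 2.55-fold, or 0.23 with normexp, under 1.5-fold. Mavs, the adaptor that carries the helicase signal, differed by -0.33.

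Ifnb1, which encodes interferon-beta itself, was not well above background on the control or ADSC medium arrays (1.41 and 1.51) and stood at 5.53 with PA and 4.90 with both. The combined array was at least 5.55-fold above the control with the processed signal. With normexp the difference was 0.49, under 1.5-fold. Of 19 interferon signalling factors 5 were at least 1.5-fold and 4 at least 2-fold higher, with a median of 0.09, so most of the list lay near the control. Irf7, the factor that amplifies interferon production, was at 9.71, 11.94, 9.21 and 11.68, 3.92-fold higher. Stat2 and Irf9, which act together at ISREs, were 2.79-fold and 2.16-fold higher.

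The class I antigen-processing genes, which cut and load peptides for T cells, differed less. Of 21 compared, 6 were at least 1.5-fold and 2 at least 2-fold higher, with a median of 0.36 against 0.65 on the PA array. With normexp those counts were 4 and 1. H2-T24, a non-classical class I gene, was at 4.48, 6.44, 4.72 and 6.45, 3.93-fold higher (0.87 with normexp). H2-M3, which presents formylated bacterial peptides, was at 11.15, 11.85, 11.49 and 12.59, 2.73-fold higher, and there the combined array was the highest. Psmb8 and Tap1, an immunoproteasome subunit and a peptide transporter subunit, differed by 0.81 and 0.72, both below their PA array, and Tap1 by 0.56 with normexp.

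**Figure D2:**
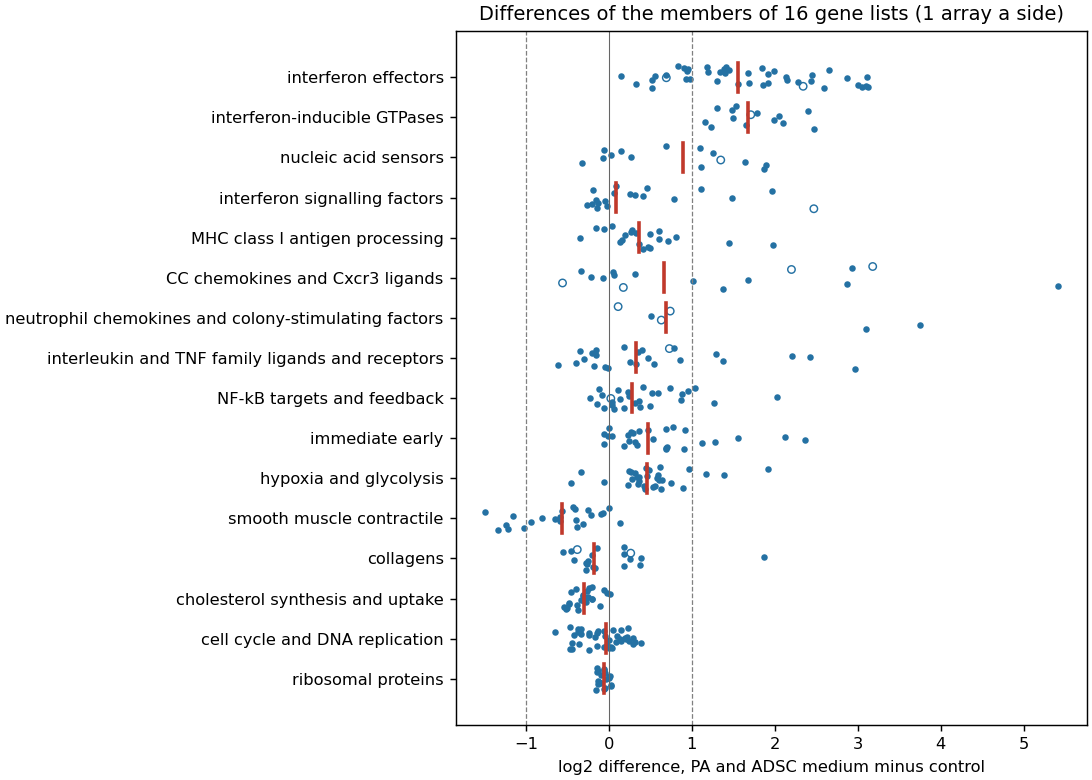
Log2 difference, PA and ADSC medium minus control (horizontal axis), of every compared member of 16 gene lists. Filled points are genes well above background on both arrays, open points are lower bounds, red bars are list medians, and dashed lines mark 2-fold. All 14 GTPases lie right of the upper dashed line, and 22 of 23 contractile genes lie left of 0.

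Chemokines and cytokines were next, and here several genes stood higher with both treatments than with either alone. Of 16 CC chemokines and Cxcr3 ligands, 8 were at least 2-fold higher, none was at least 1.5-fold lower, and the median was 0.66. Of the 16 differences 4 are lower bounds. With normexp 6 were at least 2-fold higher and the median was 0.32. Ccl4 (MIP-1 beta), a chemokine for macrophages and T cells, had the largest difference of all genes compared, at 3.48, 7.71, 4.99 and 8.89. It was 42.6-fold higher on the combined array. Its probe lies at chr11:83478052-83478111 on mm9, the build of the array's annotation. Its control level is low, where background correction matters, and with normexp the difference was 2.95 on the log2 scale instead of 5.41. Ccl5 (RANTES), which calls T cells and eosinophils, was at 11.38, 13.45, 11.88 and 14.26, 7.34-fold higher. Cxcl10 (IP-10), a ligand of Cxcr3 on T cells, was at 11.91, 14.64, 12.24 and 14.84, 7.6-fold higher. In Ccl4, Ccl5 and Cxcl10 the PA array was already far above the control, and the combined array was the highest of the 4. The other Cxcr3 ligands, Cxcl11 and Cxcl9, were not well above background in the control and reached 5.61 and 4.63 on the combined array. They were at least 9.07-fold and 4.6-fold higher, and with normexp the differences were 0.74 and 0.47. Ccl2 (MCP-1), the main monocyte chemokine of stellate cells, was at 14.56, 14.98, 14.78 and 15.94, 2.59-fold higher, and its neighbour Ccl7 was at 13.71, 13.84, 13.81 and 14.72, 2.02-fold higher. For both, PA alone and ADSC medium alone stayed within 0.5 of the control, and the combined array stood above both. Ccl7 lies at the 2-fold line: its difference of 1.02 was 0.99 with 75th percentile scaling, 0.96 as the mean of its probes and 0.91 by its other probe. Ccl8 (MCP-2), another monocyte chemokine, was at 7.33, 6.85, 8.29 and 9.01, 3.21-fold higher, with the PA array below the control.

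Neutrophil chemokines were high on both arrays with ADSC medium. Cxcl5 (LIX), a ligand of Cxcr2 on neutrophils, was at 6.67, 5.98, 8.47 and 10.42, 13.4-fold higher, the second largest difference among genes well above background on both arrays. Cxcl1 (KC), another Cxcr2 ligand, was at 9.23, 9.79, 10.33 and 12.33, 8.58-fold higher. For both genes the combined array was the highest and the ADSC medium array the next, while PA alone was below the control in Cxcl5 and a little above it in Cxcl1. Csf1, the macrophage growth factor, was at 13.06, 13.93, 12.95 and 13.57, a difference of 0.51, with its highest level under PA. Only 6 of 9 genes on this list were compared and 3 of them are lower bounds. Their median of 0.69 stands beside 0.38 for PA and 1.09 for ADSC medium. That median depends on the filter: it was 3.10 over the 3 genes well above background on both arrays, 1.27 with no filter on dim probes and 0.32 with normexp.

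Upstream stretches of Cxcl1 and Cxcl10 are shown because these chemokines stood high for different arrays. Capitals mark matches to the kappa-B site, the 10-base consensus bound by NF-kB, searched on both strands and by its name alone here.
Cxcl1, chr5:90891149-90891209, plus strand: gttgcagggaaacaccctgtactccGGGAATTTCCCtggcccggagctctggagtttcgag
Cxcl10, chr5:92348958-92349073, minus strand: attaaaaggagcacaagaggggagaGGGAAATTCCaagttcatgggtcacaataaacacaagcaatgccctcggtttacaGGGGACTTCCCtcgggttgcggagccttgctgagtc
The nearest match began 70 bases before the start of Cxcl1 and 103 before that of Cxcl10. Such a match was present for 4 of 7 neutrophil chemokine and colony-stimulating factor genes in the promoter table. It was present for 9 of 21 NF-kB targets and 4 of 12 CC chemokines and Cxcr3 ligands, against 2581 of all 27025 genes (9.55%). These counts cover whole lists, whatever the difference of a gene. Members at least 1.5-fold different were also searched for a match before the start, and only Cxcl1 and Cxcl10 were found in that search. Other lists also had larger shares than all genes: 5 of 19 contractile genes, 6 of 32 interferon effectors, 2 of 10 interferon-inducible GTPases and 2 of 12 housekeeping genes. The Cxcl10 window also held an ISRE core, beginning 213 bases before the start.

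Interleukin and TNF family genes were mixed: 8 of 25 were past 1.5-fold and 5 past 2-fold on the higher side, and 1 was past 1.5-fold on the lower side. With normexp the counts were 7, 3 and 0. Il6, the cytokine that drives the acute phase response of hepatocytes, was at 6.05, 8.31, 6.63 and 9.01, 7.8-fold higher (2.22 with normexp). Both arrays with PA were the high ones in Il6. Il33, an alarmin held in the nucleus, was at 4.20, 4.62, 5.18 and 6.40, 4.62-fold higher (0.90 with normexp), and Il1rl1 (ST2), its receptor, was at 7.29, 7.30, 8.78 and 9.72, 5.38-fold higher. For this ligand and its receptor PA alone was nearest to the control, ADSC medium alone was higher, and the combined array was the highest. Il1rn, the antagonist of the interleukin-1 receptor, was at 6.51, 6.60, 7.89 and 7.88, 2.6-fold higher, with ADSC medium alone as high as both treatments. Its other probe differed by 2.78. Il15, a growth factor of natural killer cells, was at 6.18, 6.61, 6.45 and 7.47, 2.45-fold higher by its brightest probe (0.89 with normexp) and 0.52 on the log2 scale by the other. Osm, which encodes oncostatin M, was the lower one, at 3.43, 2.90, 2.99 and 2.82, and lies where spot noise is large, with a difference of -0.62 and -0.03 with normexp.

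Of 28 NF-kB targets and feedback genes, 20 lay within 1.5-fold of the control, against 91.7% of all genes. The other 8 stood at least 1.5-fold above it (3 past 2-fold), with a median over the list of 0.28. With normexp 5 were at least 1.5-fold higher. Ptgs2 (COX-2), which makes prostaglandins, was at 9.38, 9.48, 9.65 and 11.41, 4.06-fold higher. Nfkbiz, a nuclear cofactor that Il6 induction needs, was at 8.05, 8.08, 8.53 and 9.32, 2.4-fold higher. In Ptgs2 the 3 other arrays lay close together and the combined array stood alone. In Nfkbiz ADSC medium alone was 0.48 above the control, PA alone was near it, and the combined array was the highest. Cd14, the lipopolysaccharide co-receptor, was at 9.07, 8.80, 9.81 and 10.11, 2.05-fold higher (0.96 with normexp), with PA alone the lowest of the 4.

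Immediate early genes, which answer growth factors and stress within minutes, had 12 of 27 members at least 1.5-fold and 5 at least 2-fold higher, with 15 within 1.5-fold and a median of 0.47. By any amount 24 of 27 were higher, against 45.9% of all genes. With normexp 3 were at least 2-fold higher. The same genes had medians of 0.10 on the PA array and 0.14 on the ADSC medium array. Ier3, an early gene that restrains cell death, was at 11.17, 11.14, 11.79 and 13.53, 5.14-fold higher. Nr4a2 and Nr4a1, orphan nuclear receptors, were at 9.11, 8.61, 9.72 and 11.23 and at 11.72, 11.56, 12.43 and 13.28, 4.36-fold and 2.94-fold higher. In these 3 genes PA alone was slightly below the control and the combined array was the highest by a wide margin. Egr1 and Egr2, zinc finger factors, differed in pattern: Egr1 was at 8.35, 9.22, 8.82 and 9.47 and was high with PA too, and Egr2 was at 6.84, 6.91, 8.11 and 8.12 and was as high with ADSC medium alone. With normexp their differences were 0.98 and 0.97, just under 2-fold.

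**Figure D3:**
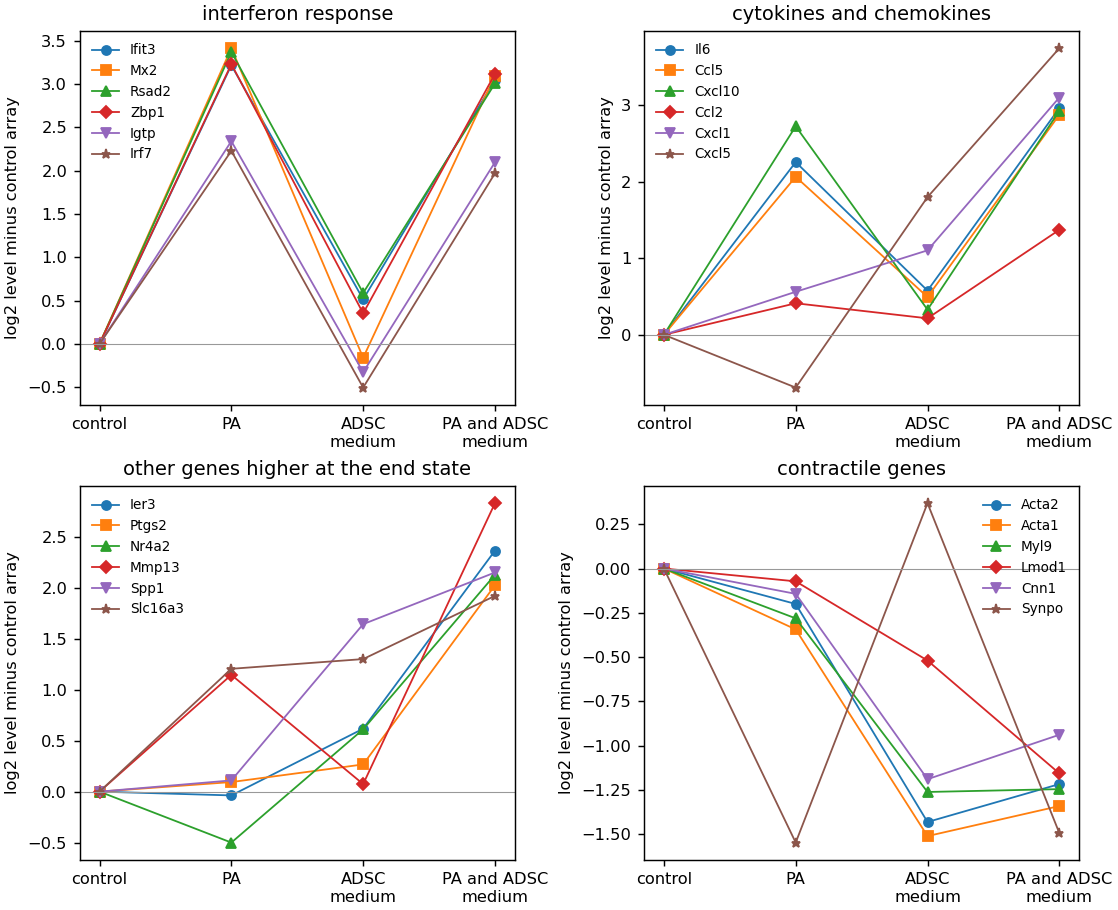
Log2 level on each of the 4 arrays minus that of the control array (vertical axis) for 24 genes in 4 panels. Each point is 1 array and lines join the values of 1 gene, with no order in time. Interferon genes are high on both arrays with PA, Cxcl1, Cxcl5, Ier3, Ptgs2 and Nr4a2 are highest with both treatments, and Acta2, Acta1, Myl9 and Cnn1 are low on both arrays with ADSC medium.

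Contractile genes of smooth muscle and myofibroblasts were a group of lower genes. Of 23 compared, 10 were at least 1.5-fold and 6 at least 2-fold lower, 22 were lower by any amount (against 52.7% of all genes), and none was at least 1.5-fold higher. The median was -0.56, beside -0.25 with PA and -0.31 with ADSC medium. Acta2 (alpha smooth muscle actin), the standard marker of activated stellate cells, was at 14.78, 14.58, 13.35 and 13.56, 2.32-fold lower. Its other 4 probes were lower too, with differences between -2.16 and -0.37. Acta1 and Actc1, the skeletal and cardiac actins, were at 10.39, 10.04, 8.88 and 9.05 and at 11.84, 11.54, 10.72 and 10.82, 2.53-fold and 2.03-fold lower. Myl9, the regulatory light chain of smooth muscle myosin, was at 12.52, 12.23, 11.25 and 11.27, 2.37-fold lower. In these actins and in Myl9 the ADSC medium array was as low as the combined array, and PA alone was within 0.4 of the control. Lmod1 (leiomodin), which nucleates actin filaments, was at 8.06, 7.98, 7.54 and 6.90, 2.23-fold lower (-0.90 with normexp), and was lowest with both treatments. Synpo (synaptopodin), an actin-bundling protein, had another order, at 9.45, 7.90, 9.82 and 7.96: it was low on both arrays with PA and not with ADSC medium. Its other probe differed by only -0.34. Cnn1 (calponin) was at 9.02, 8.88, 7.83 and 8.08, a difference of -0.94. Tagln (SM22), another actin-binding marker, was at 13.90, 14.14, 12.80 and 13.50, a difference of only -0.40, and Flna (filamin), Vcl (vinculin) and Mrtfa (the cofactor of SRF) lay within 0.1 of the control.

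Serum response factor (SRF) acts on contractile genes through the CArG box, a 10-base element searched here by its name alone on both strands. A match lay in the promoter window of 6 of 19 contractile genes in the table, against 488 of all 27025 genes (1.81%). Among the other lists searched, only the neutrophil chemokine and colony-stimulating factor genes held a match, in 1 of 7. Windows of 3 genes that were at least 2-fold lower and held a match before their start are shown as examples, with the box in capitals. They need not be the only such genes, and a match for Synpo is not reported here.
Acta1, chr8:123894814-123894873, minus strand: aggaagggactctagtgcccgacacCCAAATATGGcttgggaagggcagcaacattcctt
Actc1, chr2:114052888-114052947, minus strand: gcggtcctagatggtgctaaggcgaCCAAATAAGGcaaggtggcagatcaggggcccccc
Myl9, chr2:156775278-156775337, plus strand: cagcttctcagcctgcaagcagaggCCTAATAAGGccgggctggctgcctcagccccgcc
The box began 73 bases before the start of Acta1, 47 before that of Actc1 and 161 before that of Myl9. Srf itself was at 10.62, 10.50, 10.70 and 10.19, a difference of -0.43.

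By their brightest probes, 19 of 20 collagen genes lay within 1.5-fold of the control, a share near the 91.7% of all genes. Of the 20, 12 were lower by any amount, against 52.7% of all genes, and the median was -0.18. Col1a1 and Col1a2, the chains of type I collagen, were at 15.09, 14.92, 14.96 and 14.81 and at 13.77, 13.41, 13.76 and 13.60, differences of -0.27 and -0.17. Their other probes were lower: -0.51 and -0.47 for Col1a1, and -0.62, past 1.5-fold, for Col1a2. Col12a1, a chain of fibril-associated type XII collagen, differed by -0.45 and by -0.96 with its other probe. Col3a1, the chain of type III collagen, was at 12.27, 11.43, 12.64 and 12.08, and its lowest value was with PA alone. The exception was Col6a3, a chain of the type VI collagen of microfibrils, at 5.90, 5.89, 7.17 and 7.77, 3.66-fold higher (1.22 with normexp), with both ADSC medium arrays high.

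The other matrix genes did not share 1 direction. Of 35 matrix glycoprotein and crosslinking genes, 7 were at least 1.5-fold higher and 3 lower, against 4.63% and 3.63% of all genes. Their median was -0.07. With normexp the counts of 7 and 3 became 6 and 1. Spp1 (osteopontin), a secreted matricellular protein that stellate cells make in fibrosis, was at 10.05, 10.16, 11.70 and 12.20, 4.43-fold higher, and was high on both arrays with ADSC medium. Tnc (tenascin C), a matrix protein of wounds, was at 5.03, 5.73, 5.01 and 6.44, 2.66-fold higher (0.73 with normexp), and stood highest with both treatments. Plod2 and P4ha1, which hydroxylate collagen lysines and prolines, differed by 0.74 and 0.67. Tgm2 (transglutaminase 2), a crosslinking enzyme, was at 12.21, 12.05, 12.06 and 11.61, a difference of -0.60.

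Among small leucine-rich proteoglycans, which coat collagen fibrils, 7 were compared. Aspn (asporin) was at 6.38, 4.72, 7.09 and 7.19 and Ogn (osteoglycin) at 10.50, 8.91, 10.79 and 9.77. Both were lowest with PA alone, and with both treatments Aspn stood 1.75-fold above the control while Ogn stood 1.67-fold below it. With normexp Aspn was 0.51 above, under 1.5-fold. The list's median was 0.24 with both treatments and -0.62 with PA alone.

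Of 21 metalloproteinases, inhibitors and plasminogen activators, 3 were at least 1.5-fold higher and 1 at least 2-fold lower. Over all genes these shares were 4.63% and 0.417%. Mmp13, the main rodent interstitial collagenase, was at 5.0, 6.15, 5.08 and 7.83, 7.1-fold higher (1.68 with normexp), with PA alone above the control and ADSC medium alone near it. Mmp19 was at 6.19, 6.36, 7.5 and 7.17, 1.97-fold higher, and Plat (tissue plasminogen activator) was at 11.84, 11.50, 12.22 and 12.72, 1.83-fold higher. Adamts5, an aggrecan- and versican-cutting protease, was at 11.12, 10.84, 10.82 and 10.09, 2.04-fold lower, at the 2-fold line with -1.03 and -0.99 with normexp. The combined array was the lowest of the 4. Timp1, the inhibitor that stellate cells secrete when active, was at 14.48, 14.61, 14.55 and 14.91, a difference of 0.43.

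Of 21 TGF-beta genes, 18 were within 1.5-fold of the control, against 91.7% of all genes, and the median was -0.04. Tgfb1, the main fibrogenic ligand, was at 9.0, 9.07, 9.13 and 9.06, and Ccn2 (CTGF), one of its targets, was at 15.25, 15.53, 15.17 and 15.26. Neither gene differed from the control by more than 0.1 with both treatments. Tgfb2 was at 8.04, 7.6, 7.56 and 7.43, a difference of -0.61 (-0.49 with normexp). Tgif1, a repressor of SMAD targets, was at 7.54, 7.55, 7.97 and 8.35, 1.75-fold higher. Bambi, a decoy receptor that dampens TGF-beta signals in stellate cells, was at 8.65, 8.31, 9.17 and 9.76, 2.16-fold higher, and PA alone was below the control.

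Of 27 BMP and Wnt genes, 6 were at least 1.5-fold lower and 1 higher, against 3.63% and 4.63% of all genes. Their median was -0.23. With normexp 1 was at least 1.5-fold lower, against 143 of all 18464 genes. Grem1 (gremlin), a secreted BMP inhibitor, was the higher one at 11.32, 11.33, 11.93 and 12.44, 2.17-fold. Fzd2, a Wnt receptor, was at 12.05, 11.50, 11.76 and 11.21, 1.78-fold lower, and Wnt4 was at 6.85, 6.65, 6.42 and 5.94, 1.89-fold lower (-0.54 with normexp). In both genes the combined array was the lowest of the 4. Chrdl1, a BMP antagonist of the chordin family, was at 4.05, 4.15, 3.85 and 2.87, where its difference of -1.18 shrank to -0.22 with normexp.

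Of 35 growth factor and receptor genes compared, 6 were past 1.5-fold and 3 past 2-fold on the higher side, with 2 past 1.5-fold on the lower side. Over all genes these shares were 4.63%, 1.79% and 3.63%. With normexp the counts were 4, 0 and 1, so no 2-fold call was left. Ereg (epiregulin) and Areg (amphiregulin), ligands of the EGF receptor, were at 5.30, 5.60, 5.76 and 7.15 and at 4.74, 5.27, 5.06 and 5.94, 3.6-fold and 2.3-fold higher, each highest with both treatments. With normexp they differed by 0.96 and 0.45. Fgf10, a mesenchymal factor for epithelium, was at 5.45, 5.35, 6.39 and 6.97, 2.86-fold higher (0.85 with normexp), and high on both arrays with ADSC medium. Igf1, the insulin-like growth factor, was at 8.59, 8.07, 7.88 and 7.62, 1.96-fold lower, with its 3 other probes between -1.20 and -0.87.

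Of 31 genes of hypoxia and glycolysis compared, 11 were at least 1.5-fold and 3 at least 2-fold higher, 20 lay within 1.5-fold, and 28 were higher by any amount, against 45.9% of all genes, with a median of 0.46 beside 0.09 with PA and 0.28 with ADSC medium. Slc16a3 (MCT4), which exports lactate, was at 10.34, 11.55, 11.64 and 12.26, 3.78-fold higher. Pdk1, which closes pyruvate's way into the mitochondrion, was at 7.90, 8.77, 9.04 and 9.29, 2.61-fold higher, and Bnip3, a mitophagy receptor, was at 11.51, 12.28, 12.15 and 12.69, 2.26-fold higher. In these 3 genes each treatment alone was above the control and both together was the highest. Slc2a1 (GLUT1), the glucose transporter, was at 12.96, 13.19, 13.41 and 13.86, 1.86-fold higher. Car9 (carbonic anhydrase 9) and Pfkfb3, 2 other known targets of hypoxia-inducible factor, were on the lower side with -0.33 and -0.46.

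All 25 cholesterol genes lay within 1.5-fold of the control, against 91.7% of all genes, so none was past a fold counted here. By any amount 24 were lower, against 52.7% of all genes, and the median was -0.30, beside -0.39 with PA and 0.19 with ADSC medium. Mvk (mevalonate kinase) and Hmgcs1, enzymes of the mevalonate pathway, were at 11.16, 10.28, 11.33 and 10.62 and at 13.55, 13.08, 13.78 and 13.03, differences of -0.54 and -0.52. In both genes the arrays with PA were low and the ADSC medium array was the highest. Among 25 fatty acid synthesis genes the median was -0.01, and Scd1, the stearoyl-CoA desaturase, was at 12.01, 11.80, 12.38 and 12.00.

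Of 31 fatty acid uptake and oxidation genes compared, 30 lay within 1.5-fold, a share near the 91.7% of all genes. Their median was 0.00. Angptl4, a PPAR target that inhibits lipoprotein lipase, was at 12.01, 13.35, 12.37 and 13.50, 2.81-fold higher, and was high on both arrays with PA. Plin2, the coat protein of lipid droplets, was at 14.93, 15.20, 14.97 and 15.33, a difference of 0.40.

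Among stress programmes, the genes of the unfolded protein response, of ATF4 and of NRF2 differed little from the control. All 23 genes of the unfolded protein response lay within 1.5-fold, against 91.7% of all genes. Their median was 0.11, and Ddit3 (CHOP) was at 11.25, 11.75, 11.22 and 11.60. Of 35 genes of ATF4 and amino acid stress 32 were higher by any amount, against 45.9% of all genes. At least 1.5-fold higher were 2, a share near the 4.63% of all genes. These were Stc2 and Atf3, with differences of 0.78 and 0.63. Oxidative stress genes under NRF2 had a median of -0.04, and Hmox1 (heme oxygenase 1) was at 13.56, 13.34, 13.45 and 13.60. Of 22 targets of p53, a protein that SV40 large T antigen binds, 6 were at least 1.5-fold higher, against 4.63% of all genes. Their median was 0.26, and with normexp 5 were at least 1.5-fold higher. Pmaip1 (Noxa), which promotes cell death, was at 4.93, 6.41, 5.39 and 6.71, 3.43-fold higher (0.82 with normexp), with both PA arrays high, and Cdkn1a (p21) differed by 0.61. Of 18 heat shock genes, 3 were at least 1.5-fold and 2 at least 2-fold higher, against 4.63% and 1.79% of all genes, with a median of 0.05. Hspa4l was 2.19-fold higher, with its 3 other probes between 1.04 and 1.72. Hspa1b, an inducible HSP70 gene, was at 8.06, 7.79, 8.21 and 9.36, 2.47-fold higher. It shares a nearly identical copy, Hspa1a, at 0.70, and their probes may not tell them apart. Cell cycle genes had a median of -0.03 with 41 of 42 within 1.5-fold, against 91.7% of all genes. The mitotic kinase Plk1 lay past that fold at -0.65. Reference lists lay near 0, with medians of -0.06 for 20 ribosomal protein genes and 0.03 for 16 housekeeping genes.

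The cornified envelope genes of epithelium were split. Of 17 compared, 7 were at least 2-fold higher (5 with normexp), 9 lay within 1.5-fold, 1 (Crct1, -0.76) was lower, and the median was 0.13. With normexp Crct1 differed by -0.57, under 1.5-fold. Sprr1a, a small proline-rich protein of the cell envelope also known from injured nerve and heart, was at 7.72, 8.43, 8.97 and 10.75, 8.17-fold higher. Its relative Sprr1b was not well above background on the control and PA arrays and stood at 3.88 with ADSC medium and 6.11 with both, at least 12.8-fold higher (1.15 with normexp). Lce1i and Lce1g, late cornified envelope genes that lie in 1 cluster with near-identical relatives, were at 10.20, 9.36, 10.73 and 11.88 and at 11.31, 10.44, 11.87 and 12.98, differences of 1.67 and 1.67, while the other Lce1g probe differed by 0.41. In all 4 genes the combined array was the highest and the ADSC medium array the next. The proliferin genes Prl2c5 and Prl2c3, placental prolactin relatives that cultured fibroblasts secrete, were at 9.80, 8.98, 11.35 and 11.28 and at 9.24, 8.47, 10.73 and 10.65. They were 2.78-fold and 2.66-fold higher, with ADSC medium alone as high as both and PA alone below the control, and probes of such near-identical relatives may not tell them apart.

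Several of the most different genes belonged to none of these lists. Cck, which encodes the peptide cholecystokinin, was at 6.52, 5.34, 9.15 and 10.00, 11.2-fold higher. Prss35, a serine protease relative, was at 2.63, 0.59, 4.10 and 6.36, 13.2-fold higher. Slc6a12, a betaine transporter, was at 6.58, 7.08, 7.56 and 9.17, 6.02-fold higher. In all 3 the combined array was the highest and ADSC medium alone the next, and PA alone was below the control in Cck and Prss35. The control level of Prss35 is near the floor, and its difference was 1.27 with normexp instead of 3.72.

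Among lower genes, Mlana (Melan-A), a melanosome protein, had the most negative difference at 6.26, 4.51, 5.99 and 3.81, 5.46-fold lower (-0.96 with normexp). Klhl30, a kelch-like protein, was at 9.43, 8.93, 7.88 and 7.44, 3.97-fold lower. Mlana was low on both arrays with PA and Klhl30 on both arrays with ADSC medium, and in each the combined array was the lowest. Krt7 (keratin 7), an epithelial filament protein, was at 9.19, 8.64, 8.31 and 7.87, 2.5-fold lower, and Slc1a6, a glutamate transporter, was at 12.00, 11.93, 11 and 10.85, 2.22-fold lower. Slc1a6 was low on both arrays with ADSC medium, and Krt7 was lower with each treatment and lowest with both. H1f3, a linker histone, was at 7.85, 7.61, 8.18 and 6.56, 2.44-fold lower on the combined array alone (-0.94 with normexp). Vnn1 (vanin 1), a pantetheinase, was at 8.93, 7.98, 8.39 and 7.82, 2.17-fold lower (-0.96 with normexp). Cyp1a1, the classic target of the aryl hydrocarbon receptor, was well above background with 3.81 in the control and 2.73 with ADSC medium and not on either array with PA, at least 3.25-fold lower (-0.32 with normexp).

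**Figure D4:**
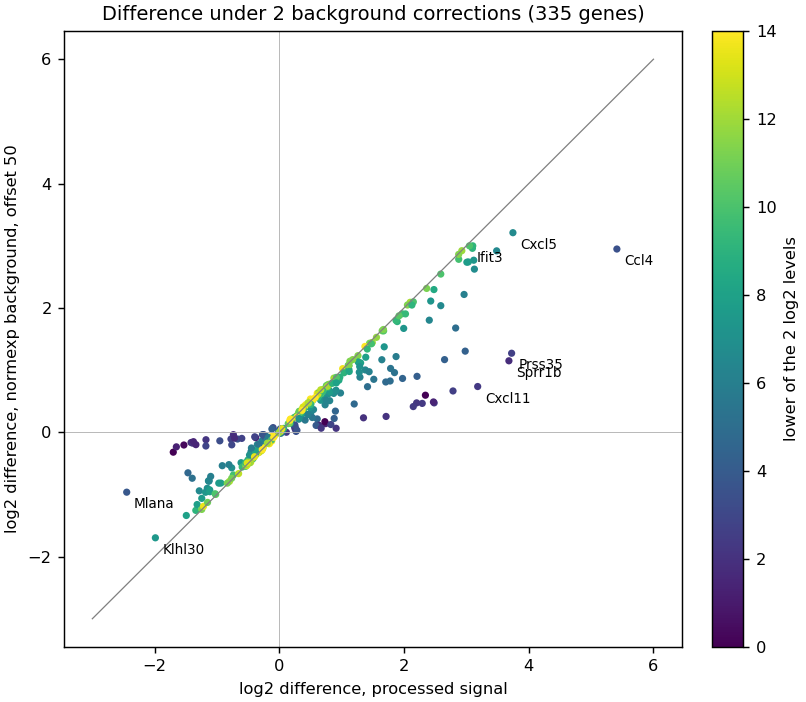
Log2 difference, PA and ADSC medium minus control, of 335 genes with the processed signal (horizontal axis) and with a normexp background correction at an offset of 50 (vertical axis). Each point is 1 gene, coloured by the lower of its 2 levels, and the line marks equal values. Bright genes lie on the line, and dim ones such as Ccl4, Prss35, Sprr1b, Cxcl11 and Mlana lie closer to 0 on the vertical axis.

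The size of a difference depended on how background was treated where a gene was dim. With normexp on the raw signal, 148 genes were at least 2-fold higher and 10 at least 2-fold lower, against 330 and 77 with the processed signal. Of the 330, 209 lay below the median mean level of 8.28, as did 63 of the 77. Bright genes kept their values: Ccl5 was 2.88 and 2.86, Cxcl10 2.93 and 2.92, and Acta2 -1.22 and -1.19 with the processed signal and with normexp. The interferon effectors had 36 of 43 members at least 1.5-fold higher with normexp.

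The authors' deposited table of probes higher with PA than in the control listed 1580 probes. Of these, 1115 were well above background on the control or combined array. Their median was 0.28 on the combined array, against -0.015 over all 28864 probes compared. On the PA array the median was 0.51, against -0.001 over all. Medians on the PA array were taken over another set, the probes well above background on the control or PA array. Another authors' deposited table, of 920 probes higher with PA than with PA and ADSC medium, had 594 probes well above background on the control or combined array. Their median was -0.49 on the combined array, and the table's median on the PA array was 0.24. The study chose both on these same arrays and both differences use the same control array, so the tables are no independent evidence of a direction.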

How the data were processed

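Total RNA from 4 cultures was extracted with ISOSPIN Cell & Tissue RNA and labelled with Cy3 (Quick Amp Labeling Kit, Agilent), per the labels' protocols. The deposited intensity values are the processed signal of each spot, background-subtracted and detrended within each array by Agilent Feature Extraction 12.1.1.1 (protocol GE1_105_Dec08, design 014868, mm9), per the file headers, with no normalization across arrays. Per the series' design text, the authors applied quantile normalization, and per the submitters' processing notes R 3.5.1 was used.

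Control spots and spots with outlier flags (82 to 104 an array) were left out, spots of a probe were averaged as log2, and quantile normalization over all 4 arrays was done in R 4.3.3 with limma 3.58.1. Later steps used Python 3.11.15 with numpy 2.4.6 and pandas 2.3.3. A value on every array was left for 41146 of 41174 probes, of which 28680 were named by RefSeq accession and 12466 by the array. Of several probes of a gene the brightest, by its mean level, was used. A gene was compared when the scanner's flag put it well above background on the control or combined array. Where the flag held on 1 side, the other was raised to at least the lowest level well above background (2.43 control, 2.11 combined), and the difference is a lower bound. No gene was saturated.

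With 1 array a group no test was run. A count of genes is a count past a stated fold. The code was tested on simulated data. Genes named are the 20 largest differences in each direction past 2-fold that were also past 1.5-fold with normexp and with 75th percentile scaling, the 8 largest bounds in each direction, up to 8 members of each of 41 lists (901 entries, 888 on the array), and a preset of 21 stellate, cytokine and lipid genes. Vim, Mavs, Osm, Car9, Pfkfb3, Srf, Tgm2, Flna, Vcl, Mrtfa, Ifi27 and Ifi35 were added after their values were seen. The comparison and the lists were chosen with earlier results of these data known. Some genes the rule names are not reported here.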

Additional observations from a re-analysis of the deposited data

How the results depend on the processing

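The counts of genes at least 2-fold higher and lower were 330 and 77. They became 148 and 10 with a normexp background, 900 and 584 with no filter on dim probes, 855 and 670 at 1.5-fold, and 117 and 6 at 3-fold. With 75th percentile scaling they were 346 and 65, with quantile normalization over the 2 arrays alone 331 and 78, with genes well above background on both arrays 294 and 59, with the mean of detected probes 337 and 77, and with outlier flags kept 333 and 77. Of 41 list medians, normexp and the missing filter each moved 13 by more than 0.1 on the log2 scale. Among interferon effectors normexp gave 1.27 in place of 1.56, among contractile genes -0.41 in place of -0.56. The ribosomal protein median was -0.16 with 75th percentile scaling in place of -0.06. Without the filter the medians of stellate markers (-0.11), small leucine-rich proteoglycans (-0.01) and metalloproteinases (-0.02) lay on the other side of 0. Of 335 named differences, normexp moved 137. No paired analysis was possible because each condition has 1 array, and no replicate could be left out. Below a level of about 4, signal over background limits the size of a difference.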
